A study of Mus musculus with 3 samples.

Results

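Creb5 is 1 gene of the 32285 rows counted in each library, found by its symbol and identifier (ENSMUSG00000053007), and it was chosen by its measured levels across palate cell types in these same libraries. Its levels are therefore given as a description, with no test. The soft palate was measured at E14.5 in C57BL/6 mouse embryos, in 2 libraries of control embryos and 1 of embryos in which Cre, expressed from the Osr2 gene of the palatal mesenchyme, removes Tgfbr1 (Osr2-Cre;Tgfbr1 fl/fl). Tgfbr1, named Alk5 in the labels, is the type I receptor for TGF-β. The study describes the controls as Tgfbr1 fl/fl or Tgfbr1 fl/+ embryos, which carry the floxed allele without Cre, and the number of embryos pooled for each library is not given in the sources used here. Nothing in the labels says that the controls came from separate litters, and with 1 mutant library no difference between the genotypes could be tested.

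Creb5 encodes a basic leucine zipper transcription factor of the ATF2 subfamily, which binds cAMP response elements (CRE) as a homodimer or together with JUN proteins. Perimysial fibroblasts are the connective tissue cells that surround muscle fibres and signal to myogenic cells, and in the palate the fibroblasts around the levator veli palatini lie next to the muscle they pattern. Outside the palate, Creb5 is known for its role in the superficial cells of the joint, where it promotes the lubricant gene Prg4 together with TGF-β signaling.

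In GRCm38 the gene spans chr6:53287270-53700376 on the plus strand, 413107 bases, with 15 annotated transcripts of which 5 are coding. The coding transcript Creb5-203 begins at the first base of the gene and has 11 exons, whereas Creb5-212 begins at position 53573300 within the gene and has 7. Near these positions, but not at the same bases, RefSeq lists 2 start regions. Both are shown, from 250 bases before to 50 bases after the start and read on the plus strand, because one holds a full CRE and the other an AP-1 element, the letters that ATF2-type and JUN-type proteins recognise, and capitals mark these letters.

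First start, chr6:53287053-53287352: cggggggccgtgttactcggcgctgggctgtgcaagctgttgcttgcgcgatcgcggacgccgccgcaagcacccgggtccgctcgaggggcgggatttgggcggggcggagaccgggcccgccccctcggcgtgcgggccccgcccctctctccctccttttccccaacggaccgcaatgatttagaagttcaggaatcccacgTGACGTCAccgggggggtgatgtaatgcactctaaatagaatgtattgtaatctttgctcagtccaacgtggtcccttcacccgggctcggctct

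Second start, chr6:53573124-53573423: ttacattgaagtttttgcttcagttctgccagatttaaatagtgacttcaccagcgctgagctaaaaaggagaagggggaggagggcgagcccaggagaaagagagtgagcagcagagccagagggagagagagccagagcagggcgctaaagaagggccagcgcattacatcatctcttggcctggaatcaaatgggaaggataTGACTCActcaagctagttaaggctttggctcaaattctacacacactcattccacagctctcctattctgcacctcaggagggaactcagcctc

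The CRE (TGACGTCA, which reads the same on both strands) began 45 bases before the first start, and the AP-1 element (TGACTCA, searched on both strands) also began 45 bases before the second start. Among 32851 mouse promoter windows of the same length, 588 (1.79%) held the CRE and 1709 (5.20%) held the AP-1 element. A match of letters is not evidence of binding. The 3′ chemistry used here reads the ends of transcripts and does not show from which start they came.

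Control 1 held 2816 barcodes and 22624711 UMIs, control 2 held 4067 barcodes and 27814907 UMIs, and the mutant held 8690 barcodes and 63505144 UMIs, where a UMI marks 1 captured transcript. Between 18 and 49 barcodes occurred in both members of a pair of libraries, and leaving them out moved none of the Creb5 ratios by more than the spread between the controls. After cells with under 500 genes, over 10% mitochondrial UMIs or high doublet scores were left out, 2056, 3689 and 7515 cells remained. Of these, 1123, 2367 and 4161 carried at least 2 mesenchymal markers and no other class and are called mesenchymal. A cell was put in a mesenchymal gate by at least 2 of the gate's markers (6 for the perimysial gate, 3 for the midline gate), and in a non-mesenchymal class by at least 3. In every library, all 9 mesenchymal, 6 perimysial and 3 midline markers were higher inside their own group than outside it. Cells were chosen by these same markers, so this follows from the gating and is no check of the gates. The osteogenic gate rested on 4 of its 6 markers in the controls, since Bglap and Phex had no UMI in the gated cells.

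Creb5 was sparsely captured. In the mesenchyme, 1640 and 2144 Creb5 UMIs were counted in the controls and 1527 in the mutant, although the mutant had the most cells. No Creb5 UMI was found in 563 of 1123 mesenchymal cells of control 1, in 1375 of 2367 of control 2 or in 3237 of 4161 of the mutant. Cells with 3 or more Creb5 UMIs numbered 237, 278 and 136, and the highest count in a cell was 20, 12 and 9. The mesenchyme supplied 62.0% and 70.4% of all Creb5 UMIs in the controls, from 44.5% and 53.3% of all UMIs. In the mutant it supplied 50.4% of the Creb5 UMIs from 47.1% of all UMIs.

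In the controls the highest Creb5 level of any class or gate was that of the perimysial gate, and the osteogenic gate was among the lowest. A level is the number of Creb5 UMIs in every 1000000 UMIs (CPM) after the cells of a gate are added together, and its exact 95% Poisson interval covers counting error only. Perimysial Creb5 in control 1 was 258 CPM (236 to 281, 254 cells). In control 2 the perimysial level was 184 CPM (163 to 207, 243 cells), and the mutant level was 81.8 CPM (69.2 to 96.0, 319 cells). In cells of the midline gate, marked by Lsp1, Wnt16 and Sostdc1, it stood at 187, 160 and 97.5 CPM. In mesenchymal cells of no gate it stood at 127, 163 and 53.6 CPM, and in tendon-like cells at 101, 110 and 44.4 CPM. The control ranges of the perimysial and midline gates overlapped, as did those of the midline gate and the cells of no gate. By these ranges the neighbours in the order did not differ beyond the spread of the controls. Within each control the perimysial gate stood above the midline gate. The midline gate stood above the cells of no gate in control 1 and slightly below them in control 2. Tendon-like cells lay below the cells of no gate in both controls. In control 1 this rested on 13 UMIs in 19 cells, with an interval of 53.6 to 172 CPM. That interval covers the level of the cells of no gate.

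Osteogenic cells, which express the bone factor Sp7, held almost no Creb5. Their level was 15.7 CPM from 13 UMIs in 75 cells of control 1, 7.02 CPM from 2 UMIs in 33 cells of control 2, and 6.69 CPM from 21 UMIs in 376 mutant cells. Within each library the perimysial gate was 16.4-fold, at least 17.5-fold and 12.2-fold above the osteogenic gate, where the value for control 2 was computed at a floor of 3 UMIs. Small mesenchymal gates gave little: Msx1 Msx2 cells stood at 33.1 CPM in the 40 cells of control 1, and Tfap2b Eya4 cells at 29.5 CPM in the 27 cells of control 2 and 59.7 CPM in the 57 cells of the mutant.

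**Figure D1:**
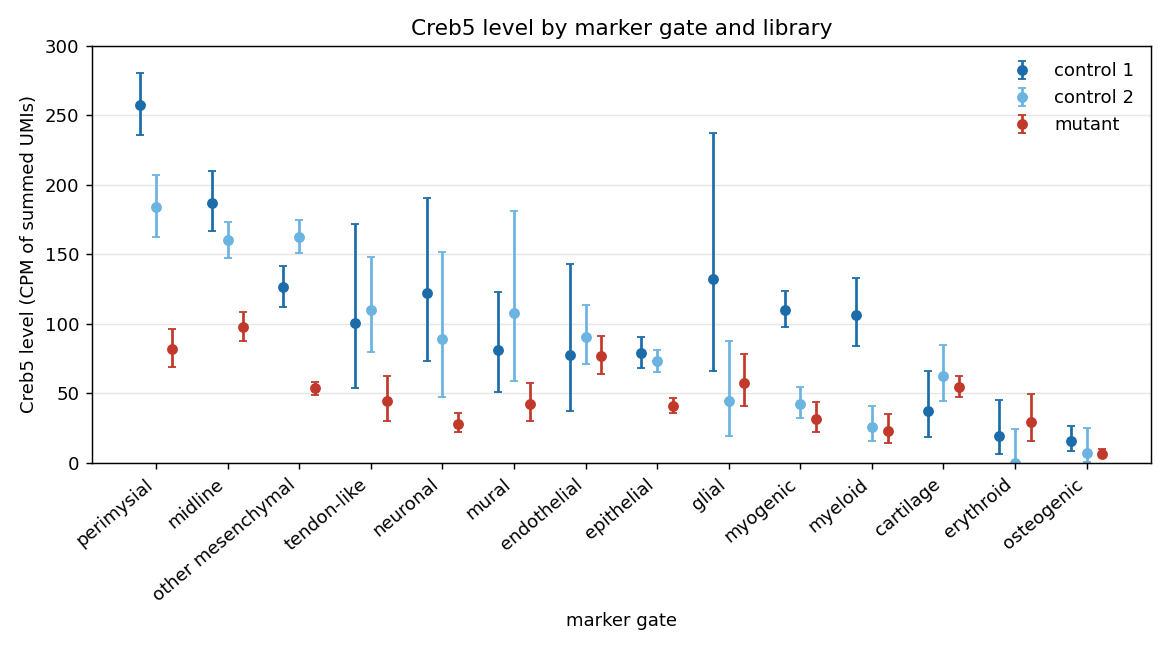
Creb5 level (CPM of summed UMIs, linear axis from 0) in 14 marker gates, with 1 point for each library and exact 95% Poisson intervals as bars. The perimysial gate is highest in both controls at 258 and 184 CPM, the osteogenic gate is near 0 in all 3 libraries, and the mutant lies below both controls in every mesenchymal gate shown.

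Detection after each cell was thinned to 2000 UMIs, which puts the libraries at 1 depth, was likewise higher in the perimysial than in the midline and osteogenic gates in the controls. In the perimysial gate 35.4%, 29.6% and 13.8% of thinned cells of control 1, control 2 and the mutant had a Creb5 UMI, in the midline gate 24.9%, 25.0% and 18.01%, and in the osteogenic gate 1.33%, 0% and 1.87%. Before thinning, the perimysial shares were 66.1%, 48.1% and 26.3%. Erythroid cells, a class not known for Creb5, had a Creb5 UMI in 0 of 23, 0 of 16 and 3 of 60 thinned cells, at medians of 1818, 9224.5 and 7068.5 UMIs before thinning against 7297.5, 5560 and 4998 in the perimysial gate. The osteogenic share was above the erythroid one in control 1 and below it in the mutant, on few cells. A count of 0 in the 33 thinned osteogenic cells of control 2 allows, at a floor of 3 counts, up to 9.09% of cells with a UMI at this depth.

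The contrast between the perimysial gate and the rest of the mesenchyme was positive but unequal and depended on how the gate was drawn. Creb5 was 2.10-fold higher in the perimysial gate than in mesenchymal cells outside it in control 1, 1.26-fold in control 2 and 1.55-fold in the mutant, log2 ratios of 1.07, 0.33 and 0.64. With at least 3 of the 6 markers required, the log2 ratios were 0.72, -0.15 and 0.18, on 110, 92 and 114 perimysial cells. With Hic1 and Ebf2 both required they were 0.25, -0.52 and 0.25, on 66, 47 and 70 cells, so that both stricter gates turned the sign in control 2. With cells gated after thinning to 2000 UMIs they were 0.87, 0.81 and 0.06, so that the controls lay close together and the mutant excess was small. With Leiden clusters, each named by the most frequent gate among its gated cells, they were 2.05, 0.68 and 0.28. The larger of the 2 clusters so named in the mutant (662 cells) had only 26.5% of its gated cells in the perimysial gate. In control 2 the highest cluster, at 422 CPM, was named midline, above the perimysial clusters at 299 and 135 CPM. In the mutant a midline cluster at 150 CPM stood above the perimysial ones at 73.2 and 64.4 CPM. In control 1 a cluster at 243 CPM was named myogenic, although 62.9% of its cells were mesenchymal, and entered neither side of the ratio.

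The 6 perimysial markers differed in how they went with Creb5. Among mesenchymal cells with a UMI of Hic1, a transcriptional repressor of connective tissue fibroblasts, Creb5 stood at 274, 212 and 81.4 CPM, against 135, 152 and 57.5 CPM in cells without one. With Agtr2, an angiotensin receptor, it stood at 234, 181 and 82.8 CPM, against 109, 139 and 48.4 CPM. With the forkhead factor Foxd1 it stood at 255, 169 and 86.5 CPM, against 155, 154 and 52.8 CPM. Creb5 was thus higher with each of these 3 markers in all 3 libraries, by a log2 ratio between 0.13 and 1.11. For Ebf2, an EBF-family factor of mesenchymal precursors, the log2 ratio was -0.05, -0.26 and 0.30. For Meox1, a homeobox factor, it was 0.03, -0.66 and 0.11, and for Aldh1a2, which makes retinoic acid and which the study uses as a perimysial progenitor marker, it was 0.26, 0.13 and -0.21. The median UMI count of cells with a marker exceeded that of cells without it, for Hic1 7840 against 7488, 5968 against 4938 and 6361.5 against 4918.

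By the number of perimysial markers in a cell, Creb5 in control 1 was 68.9 CPM with none, 176 CPM with 1, 241 CPM with 2 and 264 CPM with 3 or more. In control 2 the values were 135, 157, 208 and 163 CPM, and in the mutant 40.9, 72.2, 90.1 and 73.7 CPM. In every library the lowest level was in cells with no marker, and in control 2 and the mutant the highest was in cells with 2. The midline marker Lsp1 went with Creb5 by log2 ratios of 0.61, 0.30 and 0.95. The other midline markers did not in control 2, with ratios of 0.62, -0.03 and 0.62 for Wnt16 and 0.16, -0.01 and 0.76 for Sostdc1. The osteogenic factor Sp7 went against it, with Creb5 at 49.7, 71.2 and 29.2 CPM in cells with Sp7 and 198, 164 and 69.3 CPM in cells without.

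**Figure D2:**
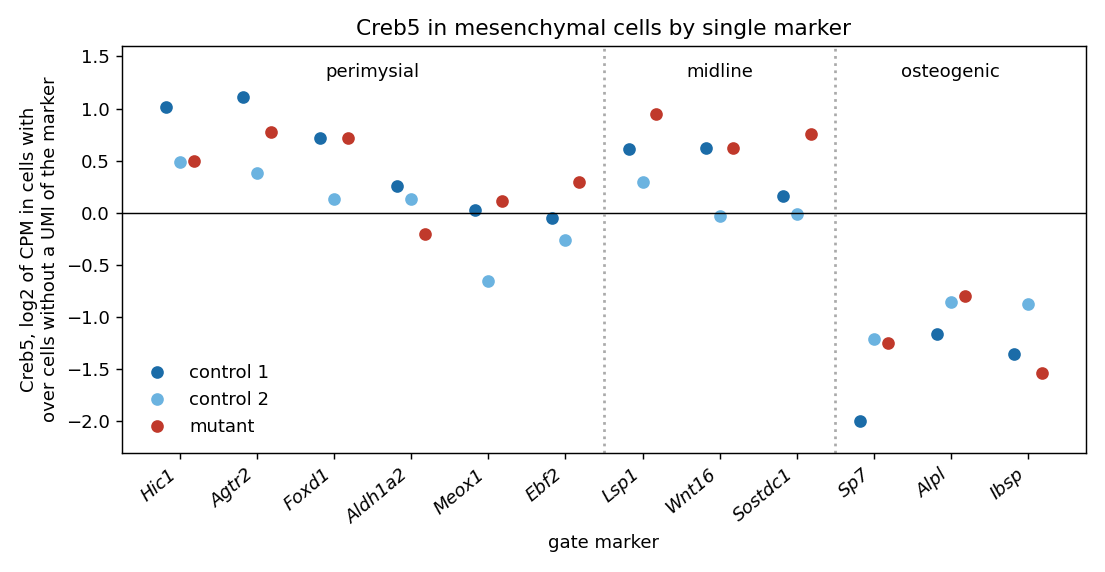
Creb5 in mesenchymal cells with a UMI of 1 gate marker over mesenchymal cells without one (log2 ratio of CPM), with 1 point for each library and dotted lines between the perimysial, midline and osteogenic markers. Hic1, Agtr2 and Foxd1 lie above 0 in all 3 libraries, Ebf2 lies below 0 in both controls at -0.05 and -0.26, and Sp7, Alpl and Ibsp lie below 0 throughout.

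Dividing cells held slightly less Creb5 in the controls. In mesenchymal cells with at least 3 markers of division it was 148, 151 and 57.9 CPM, against 189, 163 and 60.8 CPM in the others. In the perimysial gate it was 193, 157 and 96.1 CPM in dividing cells against 275, 199 and 74.7 CPM in the others, and the direction in the mutant was opposite to that in the controls.

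In both controls every other class stood below the mesenchyme taken as a whole, and the classes differed in whether mesenchymal transcripts came with Creb5. In the mutant, endothelial cells stood above it. Epithelial cells stood at 79.2, 73.1 and 41.0 CPM in 206, 371 and 484 cells. For every 100 UMIs of the mesenchymal genes Prrx1, Prrx2, Pdgfra and Twist2, epithelial cells held 21.0, 17.4 and 8.72 Creb5 UMIs, against 18.2, 17.2 and 6.03 in the mesenchyme itself. The contribution of free mesenchymal RNA to the epithelial value was not tested. In endothelial cells the same ratio was 28.6, 143 and 215 Creb5 UMIs for every 100. Endothelial Creb5 was 77.6 CPM (37.2 to 143) over the 18 cells of control 1, 90.4 CPM (70.8 to 114) over the 84 cells of control 2, and 76.6 CPM (63.9 to 91.2) over the 227 mutant cells. These levels were not uniform: among Leiden clusters of endothelial cells, 1 of 20 cells in control 2 stood at 149 CPM and 1 of 64 cells at 50.9 CPM, and in the mutant 1 of 27 cells stood at 197 CPM and 1 of 209 cells at 48.1 CPM.

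Myogenic and myeloid cells did not give one level. Myogenic cells stood at 110 CPM in control 1, 42.1 CPM in control 2 and 31.6 CPM in the mutant, and Osr2, a mesenchymal transcript, stood at 138, 19.997 and 19.7 CPM in the same cells. Myeloid cells stood at 107, 26.0 and 22.8 CPM, with Osr2 at 145, 34.2 and 8.68 CPM. In control 1, 62 of the 122 myeloid cells held at least 10 UMIs of the neutrophil genes S100a8 and S100a9, and their Creb5 level was 39.1 CPM against 121 CPM in the rest. Control 1 thus stood apart from the other 2 libraries in both classes, together with its Osr2 level, whose part was not tested. Cartilage cells stood at 37.1, 62.4 and 54.3 CPM. The control 1 values of the neuronal, glial and mural classes, and the control 2 values of the neuronal and mural classes, rested on 8 to 23 cells.

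Creb5 was lower in the Osr2-Cre;Tgfbr1 fl/fl library than in either control in every class and gate that held at least 30 cells in all 3 libraries, 7 in number, although in osteogenic cells control 2 held only 2 UMIs. In myogenic and myeloid cells the difference was smaller than the gap between the controls. Types with fewer cells were mixed. The mutant lay below both controls in endothelial, tendon-like, neuronal and mural cells. It lay between them in cartilage and glial cells, and above both in erythroid and Tfap2b Eya4 cells, on few UMIs. The deleted receptor gene Tgfbr1 itself stood at 51.9, 60.0 and 45.5 CPM in the mesenchyme. Whether the 3′ reads lie in the deleted part of the gene is not given, so these counts do not check the labels. Over the whole mesenchyme Creb5 was 177 CPM (168 to 185) and 159 CPM (152 to 165) in the controls, and 59.7 CPM (56.8 to 62.8) in the mutant. The mutant was 2.80-fold lower than the mean of the controls, which is -1.49 on the log2 scale, while the controls themselves differed by 0.16. Of 5972 genes with at least 20 CPM in both controls or in the mutant, 72 (1.21%) were lower than both controls by at least 1 on the log2 scale and by more than the control gap, and Creb5 was among them at rank 24 from the lowest. In bulk sums of this kind, fewer cells with Creb5 and less Creb5 per cell cannot be told apart. The share of thinned cells with a UMI was 24.6%, 23.3% and 10.3%. In a separate draw the share with at least 2 was 8.77%, 7.85% and 1.58%. The study, by in situ hybridization on tissue sections, reported Creb5 as unchanged in the mutant at E14.5. It proposed Creb5 as a likely partner of TGF-β signaling and not its target. The lower counts here come from 1 mutant library and a different measure, and the reason for the difference was not tested.

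**Figure D3:**
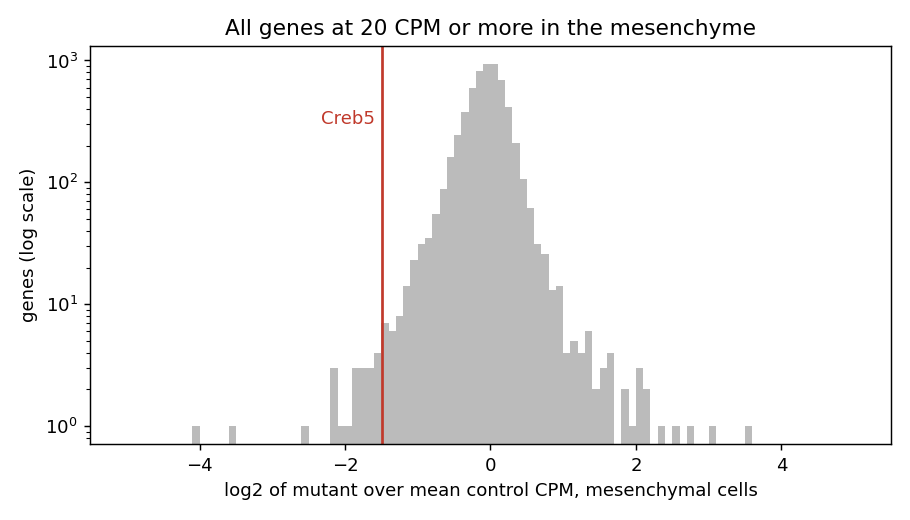
Log2 ratio of the mutant over the mean of the controls in mesenchymal cells for the 5972 genes tested (bars, number of genes on a log axis), with Creb5 as a red line. Creb5 at -1.49 lies in the lower tail of the distribution, whose median is -0.05.

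Within the perimysial gate the log2 ratio was -1.41, with a gap of 0.49 between the controls. There 94 of 6114 genes (1.54%) met the same rule, and Creb5 ranked 36 from the lowest. Against control 1 alone the ratio was -1.66 and against control 2 alone -1.17. In mesenchymal cells of no gate it was -1.42 with a gap of 0.36. In the midline gate it was smaller, -0.83 with a gap of 0.23, and did not reach the fold of the rule, and the difference between gates was not tested. As a result the perimysial gate stood 1.38-fold and 1.15-fold above the midline gate in the controls and at 0.84 of it in the mutant.

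In epithelial cells Creb5 was also lower, with a log2 ratio of -0.89 and a gap of 0.11. The mesenchymal transcript Osr2 was 120, 121 and 48.0 CPM in the same cells, so it was lower in the mutant too. Osr2 was also lower in the mutant mesenchyme itself, so it does not track mesenchymal RNA between the genotypes. The mesenchymal genes Prrx1, Prrx2, Pdgfra and Twist2 together stood at 376, 421 and 470 CPM in the epithelial cells, highest in the mutant. The part of free mesenchymal RNA in this difference was not tested. Endothelial cells gave -0.13 with a gap of 0.22, so that no difference was detectable there. Myogenic and myeloid cells gave -1.11 and -1.21, with gaps of 1.39 and 2.03, and against control 2 alone only -0.41 and -0.19. Osteogenic cells gave -0.94 only with control 2 raised from 2 UMIs to the floor of 3, and no difference is read from so few. The osteogenic gate held 3.65%, 0.89% and 5.003% of the cells kept, so the controls differed more from each other than the mutant from control 1. Leaving out every cell of that gate gave a mesenchymal Creb5 ratio of -1.39. The perimysial gate held 12.4%, 6.59% and 4.24% of the cells kept, lowest in the mutant. In mesenchymal cells outside the perimysial gate the Creb5 ratio was -1.35. The part of gate shares in the mesenchymal ratio was not tested. Osr2, which drives the Cre, was 239, 345 and 117 CPM in the mesenchyme, and its part in the result was not tested.

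**Figure D4:**
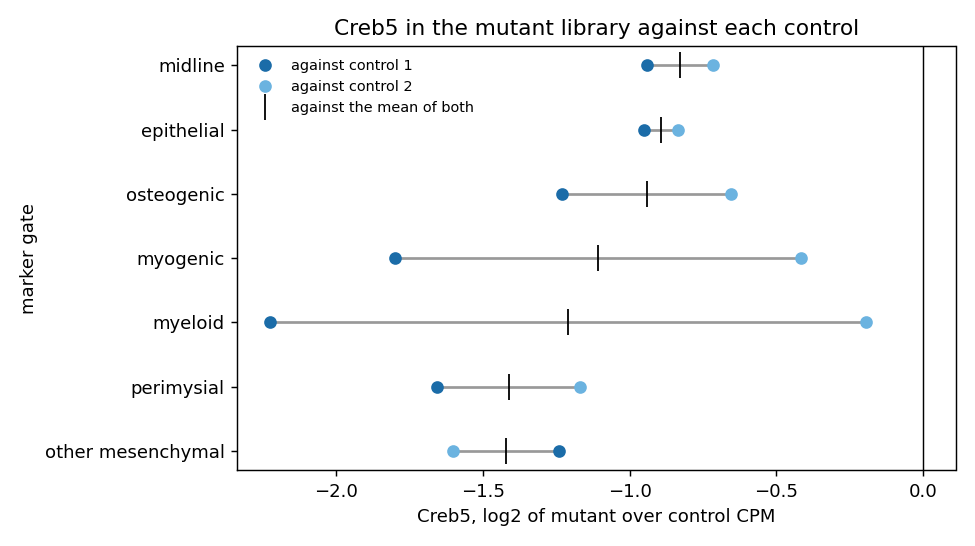
Log2 ratio of Creb5 CPM in the mutant over control 1 (dark points), over control 2 (light points) and over their mean (black ticks) in the 7 gates with at least 30 cells in every library. All points lie below 0, the perimysial gate and the cells of no gate have means of -1.41 and -1.42, and the myeloid and myogenic gates spread widely because their controls differ. The osteogenic light point and mean were drawn with the 2 UMIs of control 2 raised to the floor of 3. The levels without the floor were 6.69 CPM in the mutant and 7.02 CPM in control 2.

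The closest relatives of Creb5 moved less than Creb5 in the mutant. In the mesenchyme Atf2 was 66.9, 67.9 and 58.8 CPM, below both controls, with a log2 ratio of -0.20 and a control gap of 0.02. Atf7 was 27.4, 42.5 and 37.6 CPM, between the controls in the mutant, with a log2 ratio of 0.14. Neither gene met the rule. Of 11 further CREB and ATF factors, among them Creb1, the cAMP-responsive activator, and Atf4, the stress-response factor, 6 were tested and 0 met it, with a median log2 ratio of 0.06 beside -0.05 over all genes tested, of which 1.21% met it. Of the 5 coactivators of the CBP/p300 and CRTC families, 4 were tested and 0 met the rule. Of the JUN and FOS factors, with which ATF2-type proteins pair, 6 were tested. Jund was lower, at 717, 578 and 319 CPM with a log2 ratio of -1.01, just past the fold of the rule. The other 5, Jun, Junb, Fos, Fosb and Fosl2, lay above both controls by log2 ratios of 0.21 to 0.65 and did not meet the rule in the higher direction. Of all genes tested, 19.6% lay above both controls and 37.8% below both.

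Of the TGF-β pathway, the 10 ligands, receptors and SMADs gave 7 tested genes and 0 that met the rule, beside 1.21% of all genes tested. Of the 10 TGF-β target genes found in the files, 7 were tested and 5 lay below both controls, beside 37.8% of all genes tested. Of these 5, Tgfbi, a secreted matrix protein, met the rule at 48.7, 61.3 and 27.3 CPM. Its log2 ratio was -1.002, at the edge of the rule. Prg4, the joint gene that Creb5 is known to promote, stood at 1.94, 0.37 and 2.11 CPM, too low to be compared. Of the other joint and tendon genes 4 were tested. The tendon factor Scx, a marker of the tendon-like gate, stood at 15.1, 31.5 and 53.8 CPM, a log2 ratio of 1.305. It was under 20 CPM in control 1 and was tested only through its mutant level. Its controls also lay far apart, so no rise is read from it.

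Of the FGF ligands, receptors and feedback genes, 5 were tested in the whole mesenchyme. Spry2, a feedback inhibitor of FGF signaling, was lower at 94.8, 88.2 and 38.9 CPM. Fgf18, an FGF ligand that the study examines together with Creb5, stood at 27.9, 16.8 and 5.32 CPM and did not reach the level required in control 2. In the perimysial gate Fgf18 was 44.7, 25.8 and 8.24 CPM and met the rule, with a log2 ratio of -2.04. The receptor gene Fgfr2 stood there at 13.4, 10.2 and 32.9 CPM. It was under 20 CPM in both controls and was tested only through its mutant level, so no rise is read from it. The study examined Fgf18, the perimysial fibroblast markers Tbx15 and Smoc2 and the progenitor marker Aldh1a2 in these same libraries, so their directions here are not independent evidence. By in situ hybridization on tissue sections it also reported Fgf18, Tbx15 and Smoc2 as reduced in the mutant. It described Aldh1a2 cells as unaffected, both in sections and in these libraries. Tbx15 in the perimysial gate was 49.6, 42.1 and 8.78 CPM, a log2 ratio of -2.38, Smoc2 was 148, 123 and 85.6 CPM and did not meet the rule, and Aldh1a2 was 64.5, 62.5 and 116 CPM. Of the further factors that the study names as perimysial regulators, Hic1 in the same gate, of which it is a marker, was 144, 97.8 and 94.98 CPM, and Nr2f2, a nuclear receptor, was 126, 135 and 102 CPM. Bach2 was 13.4, 19.02 and 22.5 CPM, above both controls, and was likewise tested only through its mutant level. Meox1 was 20.4, 42.1 and 41.7 CPM, between the controls, and Etv5 was too low to be tested. None of these 4 tested factors met the rule. Tbx15, which the study also names as a perimysial regulator, met it as lower. In all, 1 of 5 tested factors met the rule, beside 1.54% of all genes tested in that gate. Hic1, Meox1 and Aldh1a2 are markers of this gate, so the gating itself holds up their levels within it. Their values there cannot show whether they changed. In the whole mesenchyme Hic1 was 59.6, 22.8 and 14.3 CPM, a log2 ratio of -1.37 with a control gap of 1.39. It did not meet the rule there.

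Within the mesenchyme, few genes varied with Creb5 from cell to cell, and weakly. Over 1118 and 2243 thinned mesenchymal cells of the controls, 17 of 4497 genes had a Pearson r of at least 0.1 with Creb5 in both controls, and 6 had an r of -0.1 or lower in both. The cells of a library share its preparation and depth, these values are descriptions, and in counts as sparse as these none exceeded 0.27. The 12 genes with the highest smaller r were Tmsb4x, Zbtb20, Meg3, Fn1, Lox, Igf2, Meis1, Nfia, Tmsb10, Lsp1, Twist2 and Mecom, of which Lsp1 and Twist2 are gate markers. They include the matrix protein fibronectin (Fn1, r of 0.20 and 0.12), the collagen cross-linking enzyme Lox (0.12 and 0.13), the imprinted growth genes Meg3 (0.27 and 0.14) and Igf2 (0.20 and 0.12), and the transcription factor Zbtb20 (0.22 and 0.14). Among the genes with the lowest larger r were the ribosomal protein genes Rps2 (-0.17 and -0.12) and Rps3 (-0.13 and -0.12), and Pcp4, a calmodulin regulator (-0.13 and -0.11). In the mutant, which was not used for the choice, all 17 kept a positive r, between 0.02 and 0.13, and 4 reached 0.1. The share of all 4497 genes with such values in the mutant was not computed, so nothing is read from these counts.

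Setting thinned mesenchymal cells with a Creb5 UMI (286, 531 and 421 cells in the draw used here) beside those without showed the size of these differences, for genes chosen on the same cells. Zbtb20 was higher in cells with Creb5 by log2 ratios of 1.68, 0.98 and 0.94, and Fn1 by 1.02, 0.78 and 0.45. Pcp4 was lower by log2 ratios of -2.09, -1.15 and -0.87. Among 8655 genes with at least 20 UMIs in each control, 2665 (30.8%) were higher in cells with Creb5 in both controls. Against that share, 6 of 7 TGF-β targets with enough UMIs, 4 of 10 ligands, receptors and SMADs, 3 of 9 FGF genes and 3 of 9 CREB and ATF factors were higher in both. Of the perimysial factors named by the study 4 of 5 were higher, and of its fibroblast and progenitor markers (Tbx15, Smoc2 and Aldh1a2) 3 of 3. Of the JUN and FOS factors 5 of 6 were higher, and of the coactivators 3 of 4. Of the joint and tendon genes 0 of 4 were higher, and of Atf2 and Atf7 none. The TGF-β targets include Fn1, which was chosen on these same cells. Some lists share Tbx15 or Etv5, so these counts are not independent of each other.

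Among single genes of these lists, Tbx15 was higher in cells with Creb5 by log2 ratios of 0.89, 1.65 and 1.58, and Fgfr2 was lower by -1.22, -1.16 and -0.56. Fgf18 was higher by 0.92 and 0.63 in the controls and stood at 0.76 in the mutant, on 26, 23 and 6 Fgf18 UMIs in cells with Creb5, too few in the mutant to read a level. Within the perimysial gate alone the Fgf18 ratio was 0.49 and 1.24 in the controls, on 11 and 6 UMIs. Outside it the ratio was 1.15 and 0.94, on 10 and 19 UMIs, and the mutant held too few UMIs for either. Skil, a SMAD corepressor induced by TGF-β, was higher by 0.79 and 0.59 in the controls and stood at -0.38 in the mutant, and the difference between the genotypes was not tested.

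Across cell types, the genes with a pattern most like Creb5 were sought by the Pearson r of log2(CPM + 10) over the 8 and 9 classes and gates with at least 30 cells in control 1 and control 2, among 7680 genes. The types share their library, and so few points give high values readily. The 8 genes with the highest smaller r were Zbtb20 (0.93 in both), Fn1 (0.90 and 0.92), Manbal (0.90 in both), Tril (0.89 and 0.92), Cntln (0.88 and 0.89), Hmga2 (0.94 and 0.86), Phactr1 (0.94 and 0.86) and Rnf185 (0.91 and 0.86). Over the 14 types of the mutant, which was not used for the choice, the r ranged from 0.24 for Manbal to 0.82 for Cntln. By r in the mutant, Cntln, Tril, Fn1, Hmga2 and Zbtb20 lay in the top 0.05%, 0.20%, 0.85%, 1.39% and 6.29% of the 7680 genes. Phactr1, Rnf185 and Manbal lay only in the top 30.1%, 30.8% and 46.6%, so their likeness did not carry over. In the controls, Zbtb20 and Fn1 were near Creb5 both from cell to cell and from type to type.

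Tril, a Toll-like receptor 4 interactor, is also the nearest coding gene on the far side of Creb5, at chr6:53815468-53820830 on the minus strand, 115092 bases beyond its end. In the perimysial gate Tril was 152, 126 and 88.4 CPM, in the midline gate 125, 120 and 57.5 CPM, and in osteogenic cells 25.3, 10.5 and 8.92 CPM. It departed from Creb5 in endothelial cells, where it was 15.5, 28.5 and 26.6 CPM. In the mesenchyme Tril was 107, 104 and 53.3 CPM, a log2 ratio of -0.99 with a control gap of 0.05, which lay just short of the fold of the rule. The next coding gene beyond it, Cpvl, and Jazf1 on the other side of Creb5 were below 3 CPM in the mesenchyme of every library. Tax1bp1, an autophagy receptor gene beyond Jazf1, was 46.5, 67.4 and 58.0 CPM, between the controls in the mutant.

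**Figure D5:**
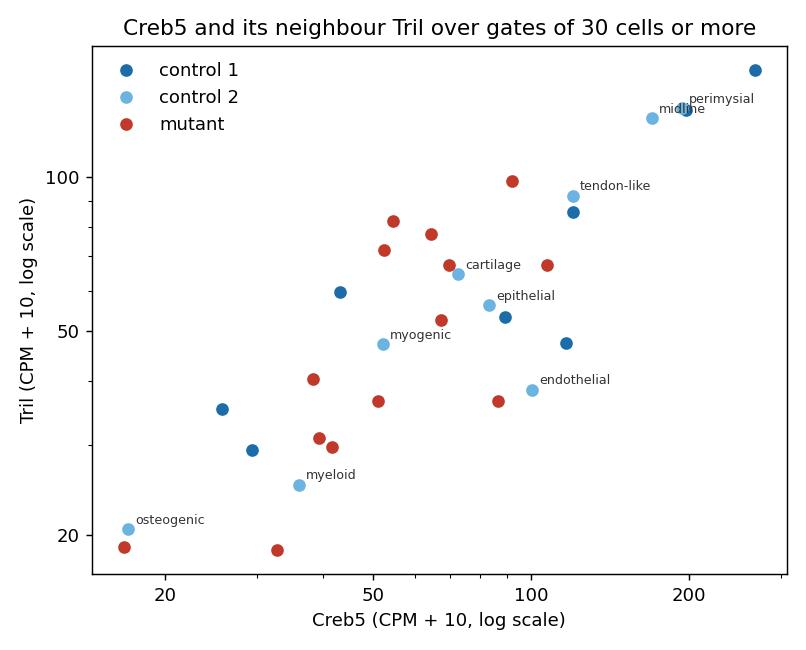
Creb5 against its neighbour Tril (CPM + 10, both axes log) over the classes and gates with at least 30 cells in each library, with the points of control 2 named. The perimysial and midline gates lie highest for both genes in the controls, the osteogenic gate lies low for both, and the endothelial point of control 2 has more Creb5 than Tril, 90.4 against 28.5 CPM.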

How the data were processed

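Raw UMI counts per gene and barcode were deposited by the authors, 1 matrix for each of the 3 libraries, made with the 10x Genomics 3′ v2 kit and Cell Ranger. The protocol and the matrix headers name version 4.0.0, the submitters' processing notes name 3.1.0 and the build mm10. Creb5 and the lists were chosen with earlier results of these data known.

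A minimum of 500 genes and a maximum of 10% mitochondrial UMIs were required. The threshold that Scrublet set marked 0, 0 and 1 barcodes, so it had not worked, and the highest scores were left out instead at rates of 2.25%, 3.25% and 6.95% that scale with the number of barcodes. Cells were gated by markers on their UMIs and those of more than 1 class or gate were set aside. UMIs were summed by gate and library, with a floor of 3 UMIs before logarithms. Cells were thinned to 2000 UMIs without replacement for shares and co-variation, and shallower cells were left out (5, 124 and 168 mesenchymal cells). Genes named are Creb5, the 12 highest and 5 lowest by r over mesenchymal cells, the 8 most alike across types, gate markers, members of the lists, and 2 coding genes on each side. Some genes that this rule names are not reported here. Scripts used Python 3.11.15, scipy 1.17.1, scanpy 1.11.5 (Leiden) and edgeR 4.0.16 (TMM factors only), and the calculations were tested on simulated data. No p-value was computed. Coordinates are from the GENCODE annotation of GRCm38 and promoters from RefSeq (GRCm38.p6).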

Additional observations from a re-analysis of the deposited data

How the results depend on the processing

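The direction of the mutant ratio for Creb5 held under every alternative run. In the whole mesenchyme (-1.49 as reported) it was -1.35 when cells were gated after thinning, -1.37 with classes at 2 markers, -1.33 with TMM factors and -1.35 with Leiden clusters, and -1.56 to -1.41 with either control left out. In the perimysial gate (-1.41) it was -2.07 when gated after thinning and -1.98 with Leiden clusters, and -1.66 to -1.17 with either control left out. TMM moved all log2 ratios in the mesenchyme by 0.16, from a median over genes of -0.05 to 0.11. The mean perimysial excess in the controls (0.70) turned to -0.13 when Hic1 and Ebf2 were both required and was 1.37 with Leiden clusters, and it was 0.33 to 1.07 with either control left out. The number of co-varying genes (17) was 81 without thinning, 32 at 3000 UMIs and 10 without osteogenic cells, of which 16, 14 and 7 were among the 17, and 27 to 73 in a single control. The Fgf18 ratio (0.77) was 1.29 without thinning, 1.05 without perimysial cells, 1.06 without dividing cells and 1.11 with doublets kept. Genes with an r of at least 0.8 across types numbered 22 in both controls and 235 to 250 in a single one. In all, 37 of 52 alternatives that kept both controls moved a value by less than the spread between the controls, or a count by less than 1.5 times, among them 3 perimysial gates that do not enter the mesenchymal ratio. The cause of the other changes was not tested. For the perimysial excess the spread between the controls was wide, at 0.52. A gate of 3 of the 6 markers, at a mean of 0.29, thus counted as unmoved although it turned the sign in control 2. Leaving out barcodes of 2 libraries, leaving out osteogenic cells, and leaving out either control for the mesenchymal level (log2 CPM of 7.31 to 7.46) and for the pattern across types were chosen after seeing the data. No paired analysis was possible because the mutant has 1 library and no test was made. The osteogenic and Fgf18 values rest on few UMIs.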

Other observations

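Barcodes left out by the filters held Creb5 at 74.3 CPM in control 1, 103 CPM in control 2 and 44.8 CPM in the mutant. Mesenchymal cells of more than 1 gate held it at 229, 166 and 70.5 CPM. Cells with no class at all, with a median depth of 3850, 2651.5 and 2706 UMIs, held it at 204, 165 and 73.7 CPM. In these 3 sets the mutant lay below both controls.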
